A study of Mus musculus with 6 samples.

Results

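Ildr2, Paqr7, Npr2 and Gas2 are 4 mouse genes whose liver signal was strongly lower in mice carrying a LIGHT transgene (LIGHT Tg) than in wild-type B6 mice (WT). They were chosen by that difference in these same arrays, so the LIGHT Tg minus WT values of the 4 genes are a description and carry no test. The annotation of the array assigns 8 probe sets to them, of 45037 non-control probe sets in all: 3 to Ildr2, 2 to Paqr7, 1 to Npr2 and 2 to Gas2. The study profiled 3 whole liver samples of WT mice and 3 of LIGHT Tg mice, 4 to 8 weeks old, each on 1 Affymetrix array, after the mice had been on the high-fat diet TD88137 for 2 weeks. LIGHT, encoded by Tnfsf14, is a cytokine of the tumour necrosis factor family. No source used here gives the promoter or cell type that drives the transgene. Genotypes follow titles and source names, while each of the 6 free-text descriptions reads wild-type B6. Among the source names, only those of WT mice name B6 and none of LIGHT Tg mice names a strain, so strain background and transgene cannot be told apart.

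Ildr2, Paqr7 and Npr2 encode membrane proteins, and Gas2 a protein of the cytoskeleton. Ildr2 (angulin-3) is an immunoglobulin-like receptor related to Lsr and Ildr1, which sit where the corners of epithelial cells meet, and it has been studied as a modifier of diabetes susceptibility and of lipid handling in mouse liver. Paqr7 is membrane progestin receptor alpha, in the same family as the adiponectin receptors. Npr2 (guanylyl cyclase B) binds C-type natriuretic peptide and makes the second messenger cyclic GMP. Gas2 (growth arrest-specific 2) binds actin filaments, was first found as a transcript that accumulates in growth-arrested fibroblasts, and is a caspase substrate.

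The genes lie on chromosomes 1 (Ildr2), 4 (Paqr7 and Npr2) and 7 (Gas2), all on the plus strand. RefSeq sequences around their start sites (build GRCm38.p6, 250 bases before to 50 after the start) matched all 4 genes, with 6 windows in all, since Paqr7 and Gas2 each have 2 start sites in the table. Of these windows 5 are printed, because the 4 genes were lower together and their starts are the sequences they could share; the other window, of the upstream Paqr7 start, shares 20 bases with the printed one. Capitals mark matches to the motifs named after them.
Ildr2, chr1:166253889-166254188: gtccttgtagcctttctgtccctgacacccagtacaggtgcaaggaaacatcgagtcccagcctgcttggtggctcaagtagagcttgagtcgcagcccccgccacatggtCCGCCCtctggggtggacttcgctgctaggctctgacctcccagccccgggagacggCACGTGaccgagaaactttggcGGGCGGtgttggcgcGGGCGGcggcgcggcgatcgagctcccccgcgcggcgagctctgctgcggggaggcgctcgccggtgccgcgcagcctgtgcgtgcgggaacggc
Paqr7, downstream start, chr4:134496791-134497090: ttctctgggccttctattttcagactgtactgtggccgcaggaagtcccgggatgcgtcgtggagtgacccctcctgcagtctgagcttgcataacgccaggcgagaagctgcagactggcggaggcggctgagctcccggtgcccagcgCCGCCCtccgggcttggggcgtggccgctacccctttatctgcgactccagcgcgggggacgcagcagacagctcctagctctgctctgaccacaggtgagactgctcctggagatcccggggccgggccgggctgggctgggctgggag
Npr2, chr4:43631685-43631984: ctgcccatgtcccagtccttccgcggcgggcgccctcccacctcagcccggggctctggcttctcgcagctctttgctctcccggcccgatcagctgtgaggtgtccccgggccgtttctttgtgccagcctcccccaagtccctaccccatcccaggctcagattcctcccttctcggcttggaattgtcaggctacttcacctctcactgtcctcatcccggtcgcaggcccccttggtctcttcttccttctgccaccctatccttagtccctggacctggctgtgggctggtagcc
Gas2, upstream start, chr7:51861765-51862064: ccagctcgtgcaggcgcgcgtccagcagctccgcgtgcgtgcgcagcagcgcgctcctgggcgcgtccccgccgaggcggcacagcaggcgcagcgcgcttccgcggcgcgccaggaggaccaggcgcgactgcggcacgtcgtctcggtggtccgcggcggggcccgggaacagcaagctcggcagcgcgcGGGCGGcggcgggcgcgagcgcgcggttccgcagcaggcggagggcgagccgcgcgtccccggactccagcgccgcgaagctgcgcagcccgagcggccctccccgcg
Gas2, downstream start, chr7:51878717-51879016: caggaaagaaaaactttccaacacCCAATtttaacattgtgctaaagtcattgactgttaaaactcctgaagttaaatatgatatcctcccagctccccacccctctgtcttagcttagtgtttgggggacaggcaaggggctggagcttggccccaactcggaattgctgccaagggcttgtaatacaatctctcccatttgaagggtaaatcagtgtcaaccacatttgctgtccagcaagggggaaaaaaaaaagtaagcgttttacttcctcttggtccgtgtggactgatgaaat

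None of the 9 motifs searched was found for all 4 genes. Searched on both strands, the GC box GGGCGG was in 3 of the 6 windows, with 3 matches before the Ildr2 start, 1 before the downstream Paqr7 start and 1 before the upstream Gas2 start, against 35.7% of all 32851 promoter windows. The E-box CACGTG was in the Ildr2 window, against 7.15% of all windows, and CCAAT in the downstream Gas2 window, against 37.4%. The TATA box TATAAA (13.6% of all windows), the STAT motif TTCNNNGAA (8.30%), the HNF1 half-site GTTAAT (7.10%), the HNF4 motif CAAAGTCCA (0.475%), the C/EBP motif TTGCGCAA (0.183%) and GGACTTTCC, part of an NF-kappaB site (0.344%), were in none of the 6. The matches in capitals do not overlap each other. GC content was 69.0% for Ildr2, 52.3% and 67.0% for the upstream and downstream Paqr7 starts, and 64.0% for Npr2. It was 80.7% and 44.7% for the upstream and downstream Gas2 starts, with a median of 52.7% over all windows. The upstream Gas2 window overlaps the neighbouring gene Fancf.

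The 6 arrays fall into 2 sets by their title numbers, which hold both genotypes: the arrays titled 77 and 78 (LIGHT Tg 1 and WT 1, the pair) and those titled 30 to 35 (the others). The sets differ in sex-linked signal. Xist, expressed from the inactive X, stood at 444 (WT) and 406.6 (LIGHT Tg) in the pair, while no other array was under 7993. The Y-linked gene Eif2s3y stood at 1037 and 1272 in the pair and at no more than 2.819 elsewhere. Sex and title-number set therefore cannot be told apart. Values are MAS5 signals on a linear scale, with array medians between 175.1 and 183.1 and sums between 30980000 and 32710000. By these signals the pair came from other animals than the others. Within the others, the labels do not say that samples of a genotype are separate animals, so the p-values reflect how these 6 samples vary, in part perhaps technically. A probe set entered the tests if its average log2 signal was at least the median of all probe sets, 7.387, a signal of 167.4. Of the 8 probe sets 6 passed this level, at least 1 for each gene; the dimmest of Ildr2 and the dimmer of Paqr7 did not.

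Ildr2 and Paqr7 had larger differences than Npr2 and Gas2 at their brightest probe sets over all 6 arrays. There was no stable order between Ildr2 and Paqr7: without WT 2 the log2 differences were -3.05 and -3.29, and without LIGHT Tg 2 they were -3.16 and -3.18. In the others alone Paqr7 (-2.71) stood close to Npr2 (-2.57) and Gas2 (-2.47). With the mean of all its probe sets Paqr7 had -2.13, a smaller difference than that of Npr2 (-2.37). For Ildr2, the signals of 1436293_x_at were 1787, 1877 and 1649 in WT 1 to 3 and 193.4, 227.3 and 203.1 in LIGHT Tg 1 to 3. The arrays of a genotype lay close together, and the lowest WT signal was 7.25 times the highest LIGHT Tg signal. The log2 difference, LIGHT Tg minus WT, was -3.09 ± 0.167 (moderated SE, n = 3 per group), which is 8.52-fold lower. It was -3.21 in the pair and -3.03 in the others. The suffix x of this probe set marks probes that may also bind other transcripts.

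The other probe sets of Ildr2 were lower in LIGHT Tg too, with more scatter. For 1436221_at the WT signals were 296.7, 777.9 and 603.1 and the LIGHT Tg signals 129.6, 156.3 and 28.5. All LIGHT Tg arrays were below the filter level, so this probe set passed it through its WT signals alone. The genotypes did not overlap, but WT 1 was the lowest WT array and LIGHT Tg 3 lay far below the other two LIGHT Tg arrays. Its difference was -2.64 ± 0.689 (SE, n = 3 per group). The pair alone gave -1.19 and the others alone -3.36. For 1436894_at, below the filter level, WT had 49.9, 371.2 and 252.6 and LIGHT Tg 29.76, 15.99 and 12.2. Here too WT 1 stood below the other WT arrays, so the difference of -3.22 ± 0.812 was -0.75 in the pair and -4.45 in the others. At the brightest probe set WT 1 did not stand apart in this way. Measured per array, the log2 gap between 1436221_at and 1436293_x_at had an SD of 0.98 over the 6 arrays, and that of 1436894_at an SD of 1.08. All 3 probe sets were lower in LIGHT Tg over the 6 arrays, in the pair and in the others, while the sizes in the pair ran from -3.21 to -0.75.

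Paqr7 was close to Ildr2 in size at 1460674_at, the brighter of its 2 probe sets. The signals were 1037, 515.8 and 788.7 in WT 1 to 3 and 82.88, 114.6 and 82.5 in LIGHT Tg 1 to 3. All LIGHT Tg arrays were below the filter level and all WT arrays well above it, and the lowest WT signal was 4.50 times the highest LIGHT Tg signal. The log2 difference was -3.02 ± 0.313 (SE, n = 3 per group; 8.14-fold lower). The pair alone gave -3.65 and the others alone -2.71. The probe set passed the filter through its WT signals alone.

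The dimmer Paqr7 probe set, 1435312_at, did not show the same size. WT had 41.84, 58.56 and 53.38 and LIGHT Tg had 41.18, 10.8 and 22.9. The genotypes were separated by a ratio of only 1.02 between the lowest WT and the highest LIGHT Tg signal, both of them in the pair. The difference was -1.23 ± 0.615. The pair alone gave -0.02 and the others alone -1.83, at signals below the filter level on all 6 arrays.

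Npr2 is represented by 1 probe set, 1427191_at, so its value has no second probe set to set beside it. The signals were 1471, 1322 and 1912 in WT 1 to 3 and 374.8, 358.2 and 201 in LIGHT Tg 1 to 3. The genotypes did not overlap, and the lowest WT signal was 3.53 times the highest LIGHT Tg signal. LIGHT Tg 3 was the lowest array, as at 1436221_at of Ildr2. The log2 difference was -2.37 ± 0.287 (SE, n = 3 per group; 5.16-fold lower). The pair alone gave -1.97 and the others alone -2.57.

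The 2 probe sets of Gas2 differed in what they showed. At 1450112_a_at the signals were 1103, 1598 and 1325 in WT 1 to 3 and 218.6, 282.8 and 242.7 in LIGHT Tg 1 to 3. The genotypes stood apart by a ratio of 3.90 between the lowest WT and the highest LIGHT Tg signal. The log2 difference was -2.43 ± 0.209 (SE, n = 3 per group; 5.38-fold lower), and its parts were alike, -2.34 in the pair and -2.47 in the others. At 1429147_at WT had 985.6, 257.7 and 330.3 and LIGHT Tg had 810.1, 251.7 and 287.1. The genotypes overlapped, and WT 1 and LIGHT Tg 1 were the highest arrays. The difference was -0.17 ± 0.615. The pair alone gave -0.28 and the others alone -0.12. Per array, the log2 gap between the 2 probe sets ran from -2.63 (WT 2) to 1.89 (LIGHT Tg 1), with an SD of 1.63, the widest of the 4 within-gene comparisons. The lower signal of Gas2 in LIGHT Tg therefore holds for what 1450112_a_at measures and was not seen at 1429147_at.

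**Figure D1:**
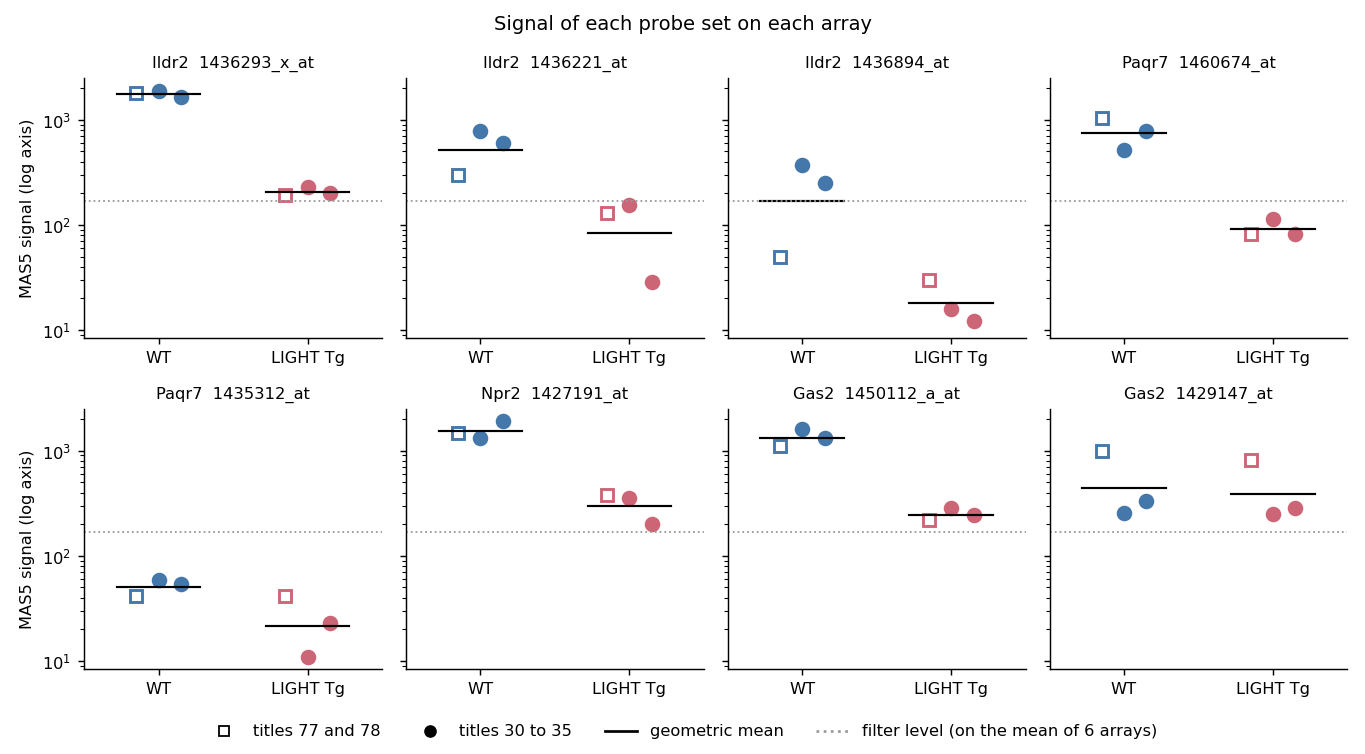
MAS5 signal (log axis) of each of the 8 probe sets on each array, WT in blue and LIGHT Tg in red, with open squares for the arrays titled 77 and 78, filled circles for those titled 30 to 35, bars at the geometric mean and a dotted line at the filter level of 167.4. In 7 of the 8 panels every LIGHT Tg point lies below every WT point, while at Gas2 1429147_at the open squares (985.6 and 810.1) lie above the circles in both genotypes.

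In all, the LIGHT Tg signals lay below all WT signals at 7 of the 8 probe sets, and at 5 of the 6 past the filter. Over all tested probe sets that pattern was seen in 9.19%, and 0.457% were lower at a false discovery rate (FDR) of 5% in limma. Nothing is read from these shares about the 4 genes, since they were chosen on this contrast. Ranked by size of difference among the 22519 tested probe sets, from the most negative, the brightest probe sets were at place 15 (Ildr2), 18 (Paqr7), 44 (Gas2) and 45 (Npr2).

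**Figure D2:**
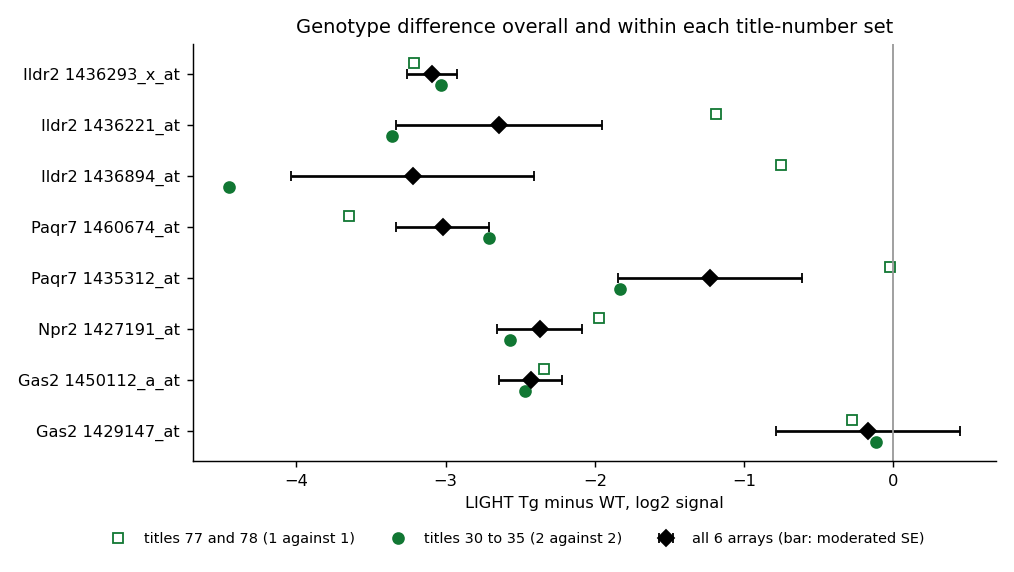
LIGHT Tg minus WT difference in log2 signal for each probe set over all 6 arrays (black diamonds, bars are moderated SE), in the pair alone (open squares, 1 array against 1) and in the others alone (filled circles, 2 against 2). The 3 values lie close together for Ildr2 1436293_x_at (-3.21 to -3.03) and Gas2 1450112_a_at (-2.47 to -2.34), and furthest apart for Ildr2 1436894_at (-4.45 to -0.75).

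The title-number set was not used to choose the genes, and its effect on them was tested. In the limma fit with genotype and set, 1 of the 6 tested probe sets passed 5% FDR for the set, against 27.4% of all probe sets tested. It was Gas2 1429147_at, higher in the pair by 1.67 ± 0.17 on the log2 scale (SE; 3.19-fold; adjusted p = 0.00169 over 22519 probe sets). Both genotypes showed it, with 1.76 within WT and 1.59 within LIGHT Tg. At the other Gas2 probe set the difference was -0.33 ± 0.154, with a 95% interval from -0.69 to 0.03 (adjusted p = 0.147). For the brightest Ildr2 probe set it was -0.06 (95% interval -0.40 to 0.27), for Paqr7 1460674_at 0.24 (-0.47 to 0.94) and for Npr2 0.19 (-0.48 to 0.85). Ildr2 1436221_at had -0.12 with an interval from -1.82 to 1.57, too wide to show whether it differed. The limma adjusted p-values of these 4 probe sets lay between 0.581 and 0.911.

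Whether the genotype difference itself differed between the sets was tested as an interaction. None of the 6 tested probe sets passed 5% FDR in limma (adjusted p between 0.555 and 0.901) and none had an unadjusted p below 0.05; over all probe sets 0.0666% passed, and 2474 had an unadjusted p below 0.05. The interaction, the difference in the pair minus that in the others, was -0.17 for Ildr2 1436293_x_at (95% interval -0.84 to 0.49), 0.14 for Gas2 1450112_a_at (-0.60 to 0.87) and 0.59 for Npr2 (-0.75 to 1.94). Paqr7 1460674_at had -0.93 (-2.15 to 0.29) and Ildr2 1436221_at 2.16 (-1.01 to 5.34), and both had passed the filter through WT alone. Leaving out 1 of the others moved the interaction of Ildr2 1436221_at from 0.94 (without LIGHT Tg 3) to 3.39 (without LIGHT Tg 2, adjusted p = 0.054 in limma; 0.437 to 0.748 under its other alternatives). That of Npr2 moved from 0.18 (without LIGHT Tg 3) to 1.01 (without LIGHT Tg 2), and that of Paqr7 from -1.24 (without WT 3) to -0.63 (without WT 2). The intervals of Npr2, Paqr7 and Ildr2 1436221_at include changes of more than 1 log2 unit, so these 6 arrays leave room for a sizeable difference between the sets there.

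**Figure D3:**
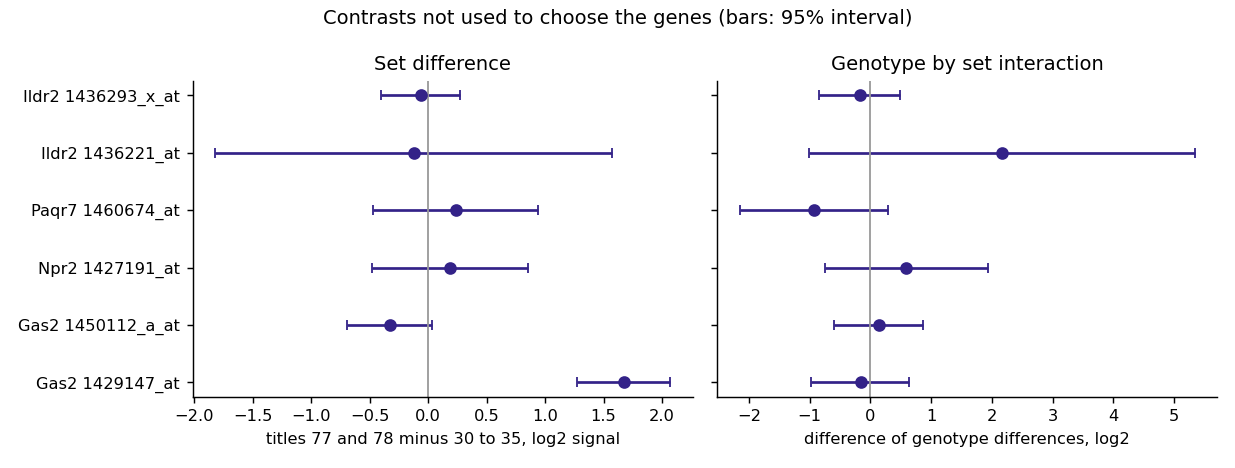
The difference between title-number sets (left) and the interaction of genotype with set (right), in log2 signal with 95% intervals, for the 6 tested probe sets of the 4 genes. The set difference of Gas2 1429147_at, 1.67 with an interval from 1.27 to 2.07, is the only interval of the 12 shown that lies clear of 0.

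None of the tested relatives of Ildr2 at cell contacts passed as lower. Of 11 tested genes of angulins and tricellular and tight junctions besides Ildr2, 1 rose, 0 fell and 10 did not pass 5% FDR in limma, against 0.839% of all 11563 tested genes higher and 0.519% lower. With so few genes passing, a count of 0 here or in the lists below does not set a list apart from other genes. The list's median log2 difference was 0.24, with -0.01 over all tested genes. Marveld3, a tight junction protein of the MARVEL family, rose by 2.98 ± 0.198 (adjusted p = 0.00135), with signals of 131.2, 132.9 and 129.4 in WT and 1250, 962.8 and 927.3 in LIGHT Tg. All 3 WT signals were below the filter level, so the probe set entered the test through its LIGHT Tg signals alone. Its genotypes did not overlap, while a dimmer tested probe set of it gave 1.51 (adjusted p = 0.122; 0.0338 with the block) and one below the filter 0.58. Lsr, the angulin that also acts as a lipoprotein receptor, had -0.26 ± 0.146 (adjusted p = 0.62), with 3258, 2602 and 2950 in WT and 2468, 2259 and 2608 in LIGHT Tg. The signals of Lsr overlapped between genotypes. Ildr1 was below the filter level, with signals between 2.85 and 9.70. With the title-number set as a block 4 of the 11 rose and 0 fell, when 3.63% of all genes were higher and 3.52% lower. Besides Marveld3 they were the pore-forming claudin Cldn2 at 0.67 (adjusted p = 0.0178 with the block) and the junctional adhesion molecule F11r at 0.53 (0.0429). The last was the scaffold Tjp1 at 0.50 (0.037). The SEs of Cldn2, F11r and Tjp1 without the block were 0.141, 0.205 and 0.213. Another probe set of Cldn2 had 0.48 (adjusted p = 0.165 with the block), and one of F11r, below the filter, -0.42.

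In a list of the family of Paqr7 and of progestin receptor genes outside it (Pgr, Pgrmc1 and Pgrmc2), 11 other genes were tested. None passed 5% FDR at its brightest probe set in limma, against 0.839% of all tested genes higher and 0.519% lower. Unadjusted p-values were below 0.05 for Mmd2, Pgr, Adipor2, Pgrmc2 and Mmd. The share of all tested genes below 0.05 was not computed, so nothing is read from their number. Mmd2, a member of the same receptor family, had -2.34 ± 0.412 (adjusted p = 0.0535), with signals of 638.3, 791.9 and 844.1 in WT and 274.7, 85.79 and 139.2 in LIGHT Tg. The genotypes did not overlap. A dimmer probe set of Mmd2 fell by 2.96 ± 0.48 (adjusted p = 0.0393), and another, below the filter, had -0.13. Pgr, the nuclear progesterone receptor, had 1.18 ± 0.224 (adjusted p = 0.0683), with 256, 223.5 and 322.8 in WT and 636.4, 668.1 and 500.4 in LIGHT Tg, while its 2 dim probe sets had 0.02 and 0.44. With the block 1 of the 11 rose, Pgr (adjusted p = 0.0179 with the block), and 3 fell. Those that fell were Mmd2 (0.0127), the adiponectin receptor Adipor2 at -0.53 (0.0132) and Pgrmc2, a membrane-associated progesterone receptor component, at -0.53 (0.032). The SEs of Adipor2 and Pgrmc2 without the block were 0.11 and 0.149. Of all tested genes 3.63% were higher and 3.52% lower with the block. These counts are at the brightest probe sets. Mmd did not pass there, while dimmer probe sets of Mmd had 0.50 and 0.86 (adjusted p = 0.0448 and 0.0243 with the block). The list's median was -0.10. The membrane progestin receptors most like Paqr7, Paqr5 and Paqr8, had 0.06 ± 0.269 and 0.13 ± 0.262 (adjusted p = 0.986 and 0.948), and Paqr9, of the same family, had 0.49 ± 0.326.

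Around Npr2, none of 11 tested genes of natriuretic peptide and cyclic GMP signalling passed in limma, without or with the block, and none had an unadjusted p below 0.05 without it. Over all tested genes 0.839% were higher and 0.519% lower, and 3.63% and 3.52% with the block. The differences of the 11 genes lay between -0.26 and 0.45, with a median of 0.04. The largest statistics were those of the phosphodiesterase Pde3b, -0.25 ± 0.193 (adjusted p = 0.761), and of Nppb, which encodes brain natriuretic peptide, -0.26 ± 0.233 (adjusted p = 0.811). The other natriuretic peptide receptors were below the filter level in both genotypes. Npr1, the receptor for atrial and brain natriuretic peptide, had signals between 16.97 and 25.8, and the clearance receptor Npr3 between 92.5 and 124.6. Nppc, which encodes the peptide that Npr2 binds, is named for that role. It was also below the level, with 47.95, 31.46 and 35.05 in WT and 103.1, 150.9 and 123.6 in LIGHT Tg. All LIGHT Tg signals of Nppc lay above all WT signals, with a difference of 1.73 ± 0.422 that did not pass limma over all 45037 non-control probe sets (adjusted p = 0.204, and 0.0746 with the block).

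Among genes tied to Gas2 by name or shared domain, with calpain genes added to the list, 9 were tested. None passed in limma without the block, against 0.839% of all tested genes higher and 0.519% lower. Unadjusted p-values were below 0.05 for Gas1, Capn1 and Capn2, again without a computed share of all genes to set beside them. Gas1, a membrane protein also named for growth arrest, had the largest statistic, with -2.34 ± 0.43 (adjusted p = 0.0618). Its signals were 1142, 1218 and 1383 in WT and 141.8, 497.6 and 211.2 in LIGHT Tg, without overlap. With the block Gas1 fell, 1 of the 9, when 3.63% of all tested genes were higher and 3.52% lower. At another tested probe set Gas1 had -0.77 (adjusted p = 0.148 in limma, and 0.0293 with the block). The calpain subunit Capn1 had -0.87 ± 0.264 (adjusted p = 0.242). A dimmer tested probe set of Capn1 had -1.22 (adjusted p = 0.137 in limma, and 0.0395 with the block). Gas2l1, which shares the GAS2 domain, had 0.35 ± 0.288, and the spectraplakins Macf1 and Dst, which carry that domain too, had -0.22 ± 0.187 and -0.24 ± 0.164. Gas2l3 had a mean below the level at all 3 of its probe sets, with 254.7, 236.1 and 160.9 in WT and 247.9, 18.74 and 61.3 in LIGHT Tg at the brightest. LIGHT Tg 1 overlapped with WT there and the other two LIGHT Tg arrays did not. The median over the 9 genes was -0.22.

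**Figure D4:**
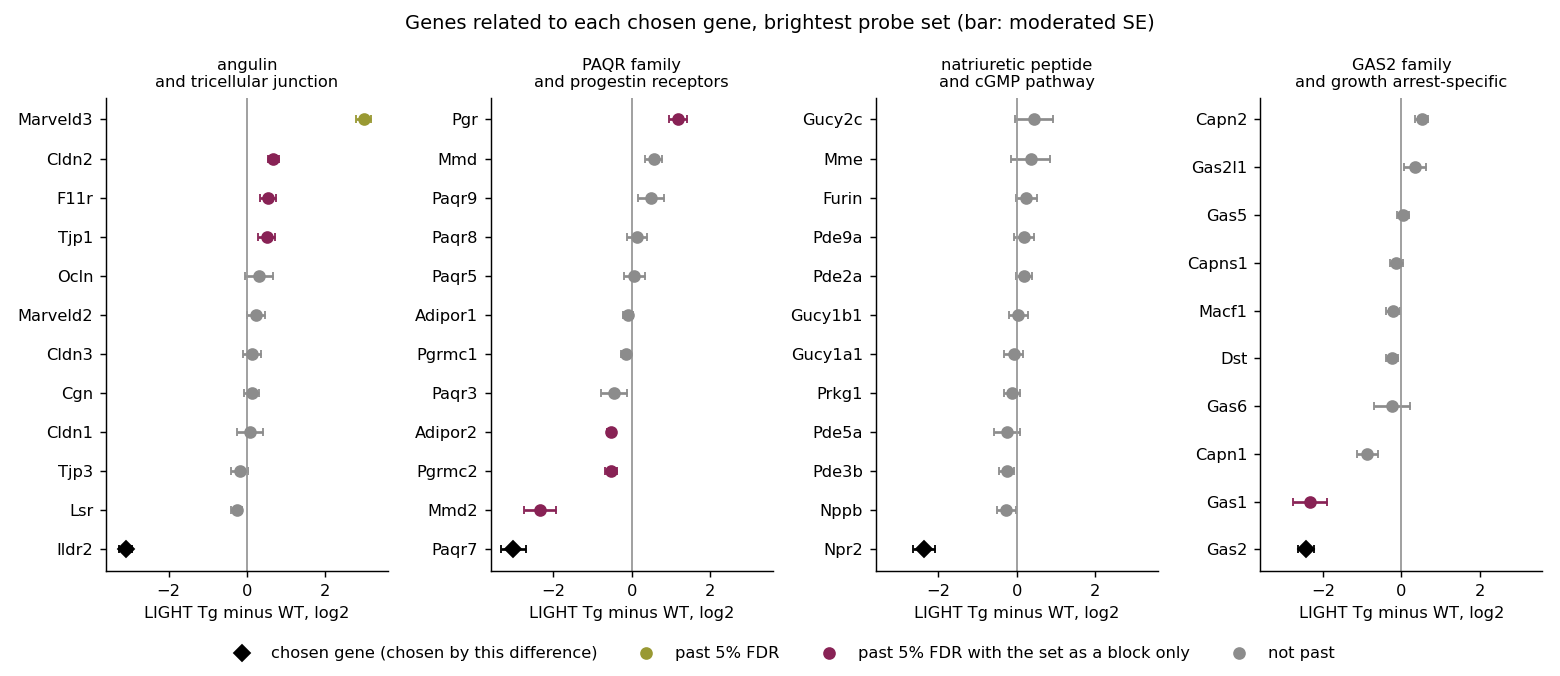
LIGHT Tg minus WT difference in log2 signal with its moderated SE for the tested genes related to each of the 4 genes, brightest probe set of each. Black diamonds are Ildr2, Paqr7, Npr2 and Gas2, which were chosen by this difference. Marveld3 at 2.98 is the 1 other gene past 5% FDR, and it met the filter through its LIGHT Tg signals alone. The 8 dark magenta points passed with the title-number set as a block only, while all SEs shown are from the fit without it.

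No tested gene beside the 4 on their chromosomes passed as changed. The 3 nearest protein-coding genes on each side gave 24 neighbours, of which 21 were matched to a probe set and 12 were tested. None passed 5% FDR in limma, without or with the block, none had an unadjusted p below 0.05, and their differences lay between -0.40 and 0.48. Over all tested genes 0.839% were higher and 0.519% lower, and 3.63% and 3.52% with the block. A count of 0 of 12 therefore does not set the neighbours apart from other genes. The largest statistics were those of Tada1, beside Ildr2, at -0.40 ± 0.217 (adjusted p = 0.596) and Hint2, near Npr2, at -0.37 ± 0.253 (adjusted p = 0.712). Fancf and Svip, which flank Gas2, had 0.17 ± 0.263 and -0.18 ± 0.318. Svip and Fancf were also examined for the set difference, a choice made after their values were seen. Svip had -0.59 ± 0.233 (adjusted p = 0.0975 in limma), opposite in sign to that of Gas2 1429147_at, and 0.50 at another probe set. Fancf had 0.46 ± 0.195 (adjusted p = 0.117 in limma), of the same sign, and 0.68 and 0.19 at its other probe sets.

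**Figure D5:**
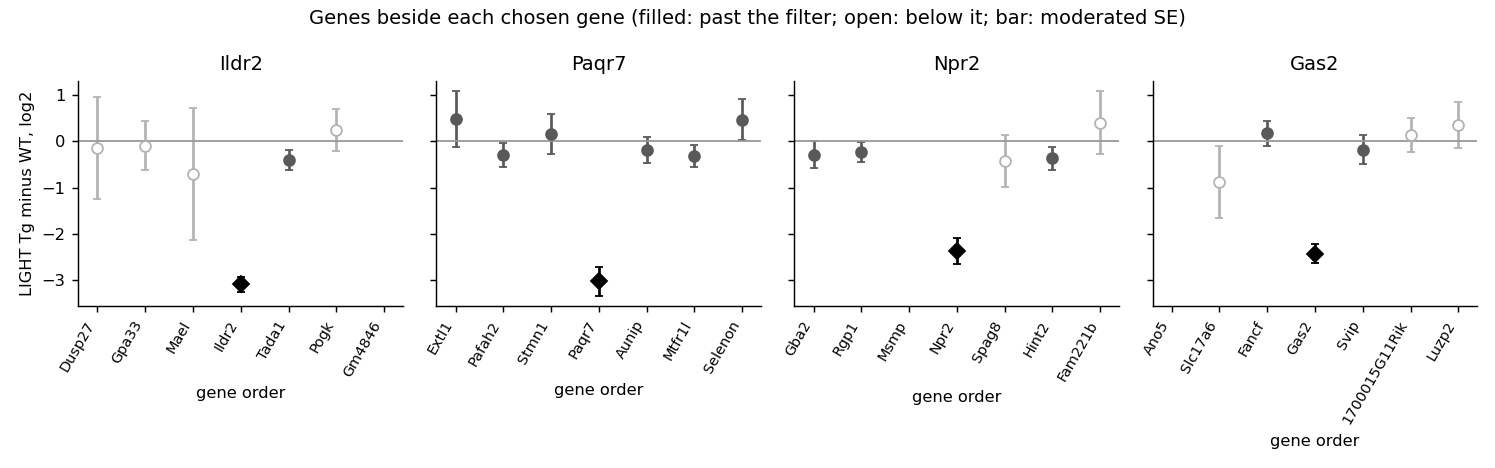
LIGHT Tg minus WT difference in log2 signal (moderated SE) of each of the 4 genes, black diamonds, and of the 3 protein-coding genes on each side in gene order, filled where past the filter and open where below it; 3 neighbours without a matched probe set have no point. The filled neighbours lie between -0.40 and 0.48, and the diamonds between -3.09 and -2.37.

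Likeness of pattern was measured as the root mean square difference of log2 signals over the 6 arrays, each gene centred on its own mean, among 11562 other tested genes. It is dominated by the genotype difference that chose the genes and is a description. The nearest to Ildr2 were Enpp3, an ectonucleotidase (0.209 log2 units), Il1rap, the accessory protein of the interleukin-1 receptor (0.223), and Etnppl, a phospho-lyase of phosphoethanolamine (0.273). Gas2 was nearest to Il1rap (0.185), Etnppl (0.248) and Hsd17b13, a lipid droplet protein of liver (0.320). For Npr2 the nearest were Etnppl (0.288), the retinol saturase Retsat (0.323) and Cyp2c50 (0.393), and for Paqr7 they were Ildr2 itself (0.338), Etnppl (0.412) and Il1rap (0.422). Etnppl was thus among the nearest 3 for all 4 genes and Il1rap for 3 of them. The signals of Etnppl were 1692, 2039 and 2041 in WT and 292.5, 367.5 and 222.9 in LIGHT Tg. Between the 4 genes the measure ran from 0.338 (Ildr2 and Paqr7) to 0.542 (Paqr7 and Gas2), and the median over all other genes was 1.57 for Ildr2 and Paqr7 and 1.26 for Npr2 and Gas2.

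In whole liver, fewer cells of a type and less RNA per cell cannot be told apart. Over all tested genes 0.839% were higher and 0.519% lower in limma, and 3.63% and 3.52% with the block. Of 12 hepatocyte markers 11 were measured and 0 passed in limma, 1 of them (Asgr1, 0.57) with an unadjusted p below 0.05, and Asgr1 rose with the block (adjusted p = 0.0102). Their differences lay between -0.22 and 0.57 (median -0.01), and their summed signal was 189800 to 196800 in WT and 187700 to 198600 in LIGHT Tg, with Apoa1 and Fgb the brightest. Of 8 endothelial markers 2 rose at 5% FDR in limma (Vwf by 2.39 and Lyve1 by 1.24). The Vwf signals of WT 1 and WT 2, 147.6 and 153, were below the filter level. Stab2 (0.75) rose with the block only (adjusted p = 0.0127). The other 5 markers passed in neither fit, between -0.09 (Kdr) and 0.36 (Clec4g). The sum of the 8 was 7394 to 8192 in WT and 10570 to 13700 in LIGHT Tg. Of 8 bile duct markers 6 were measured and 2 were past the filter. Of these, Prom1 rose by 4.20 on the log2 scale (adjusted p = 0.0134 in limma) and Epcam had -0.55 (adjusted p = 0.957). The Prom1 signals of WT 1 and WT 3, 60.85 and 166.8, were below the filter level. The dim Krt7, Krt19, Sox9 and Cftr had -1.05, 0.07, 0.18 and 0.30. The sums of the 6 overlapped (982.3 to 6361 in WT and 2969 to 6747 in LIGHT Tg). Both ranges were widened by Epcam, which was higher in the pair by 3.26 (adjusted p = 0.0038 for the set in limma). Of 3 measured pancreatic acinar markers, Cela1 carried nearly all of the sum (1280 to 1738 in WT and 924.3 to 1085 in LIGHT Tg) and had -0.59 (adjusted p = 0.261, and 0.0304 with the block), while the dim Cpa1 and Ctrb1 had 0.17 and 0.09. Sums were lower in LIGHT Tg for 2 dim adipocyte markers (59.3 to 92.83 against 27.1 to 49.56) and overlapped for stellate, Kupffer, T and B cell markers. The brightest markers were Clec4g and Stab2 (endothelial), Epcam and Prom1 (bile duct), Dcn and Reln (stellate), Csf1r and Cd5l (Kupffer), Cd8a and Cd2 (T cell), Jchain and Ms4a1 (B cell), Cela1 and Ctrb1 (acinar) and Adipoq and Lep (adipocyte). The part of these markers in the lower signal of the 4 genes was not tested.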

How the data were processed

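The values are the MAS5 intensities the authors deposited, 1 signal per probe set and array on a linear scale. The method name comes from the submitters' processing notes; no source used here gives its version, its scaling or detection calls. The 106 values below 1 were raised to 1 before log2. Of 45101 probe sets 64 controls were left out; 34945 of the rest had 1 gene symbol, 932 several and 9160 were unnamed here. Probe sets at or above the median mean log2 signal (22519) were fitted with lmFit and eBayes of limma 3.58.1 in R 4.3.3, with a variance trend, two-sided, with Benjamini-Hochberg adjustment over all of them and 5% FDR. The fits were genotype alone, genotype plus title-number set, and their interaction. Related genes, neighbours and markers were taken at their brightest probe set; of 136 list entries, 14 had no probe set by symbol and are not analysed here.

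The 4 genes and all lists were chosen with earlier results of these data known. Named are all probe sets of the 4 genes; of each related list and of the neighbours, genes past 5% FDR and otherwise the 2 with the largest statistic; the 2 brightest markers of each cell type; and the 3 nearest patterns per gene. Other genes are named for their role or for a low p, a choice made after their values were seen. Symbols and promoters are from RefSeq (GRCm38.p6); the RefSeq table changed 0 symbols. Alternatives were other scalings, an offset, other filters and variance models, the set as a block, the arrays titled 30 to 35 alone, and each array left out. The fits were tested on simulated data. Plots used Python 3.11.15 and matplotlib 3.10.9.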

Additional observations from a re-analysis of the deposited data

How the results depend on the processing

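The lower signal of Ildr2, Paqr7, Npr2 and Gas2 at the brightest probe sets kept its direction under all alternatives run (scalings, offset, block, arrays titled 30 to 35 alone, linear ratio, each array left out). Leaving out an array gave log2 differences of -3.16 to -3.04 for Ildr2, -3.29 to -2.79 for Paqr7, -2.53 to -2.08 for Npr2 and -2.56 to -2.29 for Gas2. With an offset of 37.4 before log2 the values were -2.88 for Ildr2 and -2.60 for Paqr7, and with the mean of all probe sets -2.98 for Ildr2, -2.13 for Paqr7 and -1.30 for Gas2, where the probe sets differ. The set difference of Gas2 1429147_at passed under every alternative that tested it; the stricter filter leaves it out (0 probe sets of the 4 genes passed there); without 1 array it lay between 1.59 and 1.76. Set differences that did not pass changed sign without some arrays: -0.15 to 0.02 for Ildr2 1436293_x_at, -1.21 to 0.96 for Ildr2 1436221_at, -0.23 to 0.70 for Paqr7 1460674_at and -0.11 to 0.48 for Npr2. The interaction of Gas2 1429147_at lay between -0.34 and 0.01, and no interaction passed under any alternative run (lowest adjusted p = 0.054, Ildr2 1436221_at without LIGHT Tg 2); without WT 1 or LIGHT Tg 1 it could not be fitted.

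Over all probe sets 264 passed between genotypes, 1457 with the block, 956 in the arrays titled 30 to 35 alone, 148 without the variance trend and 43 to 306 without 1 array (leaving out WT 2 gave 68, WT 3 gave 63, LIGHT Tg 2 gave 80 and LIGHT Tg 3 gave 43). Of the related genes 1 passed, Marveld3, whose brightest probe set met the filter through its LIGHT Tg signals alone. It passed in each alternative that tested it. With the block 9 related genes passed, and 4 did in the arrays titled 30 to 35 alone (Adipor2, Gas1, Marveld3 and Mmd2). The offset gave 2 (with Mmd2), and leaving out 1 array gave 1 to 2 (with Mmd2 without LIGHT Tg 1, with Gas1 without LIGHT Tg 2). The stricter filter left Marveld3 out and called Gas1. No neighbour passed under any alternative. No paired analysis was possible because the labels give no replicate numbers shared between genotypes. Without detection calls low signals carry no bound, and the number of arrays limits the precision.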
